A study of Mus musculus with 63 samples.

Results

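The astrocyte lineage transcription factors Sox9, Sox2, Nfia, Nfib, Nfix, Hes5, Hes1, Id4, Id3 and Pax6 were followed through 4 sorted populations of mouse brain cells. The 10 genes were taken by symbol from 56980 Ensembl identifiers in each count table, and all 10 were found. RNA was sequenced 5 weeks after a non-severe full-thickness burn over 7 to 8% of the body surface, or after a sham procedure in which mice were shaved and not burned. All mice were female C57BL/6J, 12 weeks old on arrival. Both groups had received 2 viral reporters in the motor cortex, AAV5-CamKII-eGFP and AAV1-mDlx-mRuby2, and analgesia. Further buprenorphine after surgery was given as needed, and the study reports it only for some burn-injured mice. CaMKII positive cells (eGFP alone, labelled excitatory neurons) and CaMKII-mDlx double-positive cells (labelled inhibitory neurons) were sorted from motor cortex, whereas ACSA2-positive astrocytes and CD11b-positive microglia came from cortex behind it, so that sorted population and cortical region cannot be told apart between the virus-labelled and the antibody-labelled cells. The reporters mark cells by promoter activity after viral delivery, and ACSA2 and CD11b by surface protein. After mouse 3 and double-positive mouse 8 were left out, 58 libraries from 17 mice remained. ACSA2-positive astrocytes gave 9 burn and 8 sham libraries, CaMKII positive cells 4 and 6, double-positive cells 9 and 7, and CD11b-positive microglia 8 and 7.

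These factors act together in the making and upkeep of astrocytes. Notch signalling acts through the DNA-binding protein RBPJ to induce the Hes repressors, BMP signalling induces Id proteins, which bind basic helix-loop-helix activators and keep them off DNA, and the SOX and nuclear factor I (NFI) proteins open and activate astrocyte genes such as those for glutamate transporters and GFAP. Sox2, Hes1, Hes5 and Pax6 are also known from neural stem cells. In a sorted bulk library the level of such a gene depends on how many cells express it and on how much RNA each holds, and these cannot be told apart.

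Marker genes did not bear out the neuronal labels. Slc1a2, the main astrocyte glutamate transporter, averaged 11229 ± 2232 CPM (SD, n = 10) in the CaMKII positive libraries and 23035 ± 3172 CPM (n = 17) in the ACSA2-positive libraries, whereas Slc17a7, the vesicular glutamate transporter of excitatory neurons, averaged 12.4 ± 11.2 CPM in the former. The summed level of 8 endothelial markers was 3876 to 10987 CPM in CaMKII positive libraries and 153 to 1467 CPM in ACSA2-positive libraries. Double-positive libraries held Csf1r, the microglial growth factor receptor, at 5777 ± 1337 CPM (n = 16) and the inhibitory neuron gene Gad1 at 0.724 ± 0.545 CPM. The summed level of 9 astrocyte markers was 33683 to 46399 CPM in ACSA2-positive, 12675 to 24187 CPM in CaMKII positive, 291 to 1168 CPM in double-positive and 43.4 to 154 CPM in CD11b-positive libraries. The populations are therefore named below by their sorting marks. Total counts per kept library ranged from 13346143 to 134703744.

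Sox9, a SOX factor required for the switch from neuron to glia production and kept on in adult astrocytes, fell stepwise over the 4 populations. In ACSA2-positive libraries it ranged from 596 CPM through a median of 750 CPM to 908 CPM. In the CaMKII positive libraries the 4 burn values were 360, 367, 395 and 420 CPM, and the 6 sham values lay between 387 and 519 CPM. In double-positive libraries Sox9 ranged from 2.47 to 21.9 CPM (median 9.49), and in CD11b-positive libraries from 0 to 5.63 CPM (median 1.2). The ACSA2-positive, CaMKII positive and double-positive ranges did not overlap one another, whereas the double-positive and CD11b-positive ranges overlapped between 2.47 and 5.63 CPM. Sox2, the pluripotency and neural progenitor SOX factor, had the same order of populations, with medians of 313, 166, 4.64 and 0.268 CPM in ACSA2-positive, CaMKII positive, double-positive and CD11b-positive libraries. Its ACSA2-positive values (236 to 456 CPM) overlapped the CaMKII positive ones (116 to 257 CPM), and 4 of 15 CD11b-positive libraries held no Sox2 count at all.

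The Notch effectors Hes5 and Hes1, both transcriptional repressors, differed from one another. Hes5 ranged from 82.4 to 168 CPM (median 130) in ACSA2-positive libraries, from 11.4 to 92.7 CPM (median 40.1) in CaMKII positive libraries, from 0 to 4.92 CPM (median 2.08) in double-positive libraries and from 0 to 0.786 CPM (median 0.177) in CD11b-positive libraries. The 4 CaMKII positive burn libraries alone held 19.7, 29.2, 48.3 and 92.7 CPM, the widest relative spread of any member in that population (SD 59.7% of the mean over burn and sham). Hes1 was present in every library of every population. It ranged from 33.6 to 87.4 CPM (median 51.8) in ACSA2-positive libraries, 52.9 to 94.8 CPM (median 69.2) in CaMKII positive, 11 to 36.3 CPM (median 23.4) in double-positive and 11.4 to 41 CPM (median 18.3) in CD11b-positive libraries. For Hes1 the CaMKII positive range lay above the double-positive and CD11b-positive ranges, and all other pairs of populations overlapped. Of the Hes5 exon bases, 31.8% are also covered on the opposite strand by Gm20421, and whether counting used the strand is not given in the sources used here, so part of the Hes5 count could belong to that gene.

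Hes5 stood out among the members by the letters of its promoter, which is shown for that reason beside those of Sox2, Id3 and Nfia. The sequences are the 250 bases before the start of each gene in the RefSeq table of build GRCm38.p6, 5′ to 3′ on the gene's strand, and capitals mark every match, on either strand, to 6 motifs. The motifs searched were the RBPJ site GTGGGAA, the SOX site ACAATG, the N-box CACNAG bound by Hes proteins, the BMP-responsive GGCGCC, the NFI palindrome and the TATA box TATAAA, and none of the matches overlapped another. The build differs from that of the counts, so the positions (Hes5 chr4:154960673-154960922, Sox2 chr3:34649745-34649994, Id3 chr4:136143572-136143821 and Nfia chr4:97581693-97581942, all on the plus strand) apply to GRCm38.p6 only.
Hes5: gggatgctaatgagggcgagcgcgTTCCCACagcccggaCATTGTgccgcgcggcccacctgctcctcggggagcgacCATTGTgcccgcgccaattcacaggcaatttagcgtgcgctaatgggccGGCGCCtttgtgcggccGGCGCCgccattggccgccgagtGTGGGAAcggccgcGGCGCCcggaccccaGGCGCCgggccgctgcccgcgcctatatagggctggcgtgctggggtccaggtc
Sox2: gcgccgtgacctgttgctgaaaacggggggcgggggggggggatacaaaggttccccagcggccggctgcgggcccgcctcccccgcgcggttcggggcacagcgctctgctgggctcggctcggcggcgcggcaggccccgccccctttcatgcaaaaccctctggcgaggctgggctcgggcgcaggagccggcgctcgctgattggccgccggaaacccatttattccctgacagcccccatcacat
Id3: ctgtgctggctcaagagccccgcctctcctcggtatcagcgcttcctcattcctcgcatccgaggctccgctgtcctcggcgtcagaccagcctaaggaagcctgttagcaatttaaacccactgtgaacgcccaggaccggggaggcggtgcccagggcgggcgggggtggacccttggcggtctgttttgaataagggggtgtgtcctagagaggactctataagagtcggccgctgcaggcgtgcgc
Nfia: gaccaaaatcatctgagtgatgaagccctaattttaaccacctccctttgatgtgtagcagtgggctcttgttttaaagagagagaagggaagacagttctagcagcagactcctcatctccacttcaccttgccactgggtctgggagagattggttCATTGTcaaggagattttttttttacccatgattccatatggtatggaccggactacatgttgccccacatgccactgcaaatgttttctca
The Hes5 window held 2 RBPJ matches, 226 to 220 and 83 to 77 bases before the start, together with 2 SOX matches and 4 BMP-responsive matches. Of 32817 promoter windows of the same length in the table, 5.42% held an RBPJ match, 10.7% a SOX match, 9.59% a BMP-responsive match and 36.7% an N-box match. The Sox2 and Id3 windows held no match to any of the 6 motifs, and the Nfia window held 1 SOX match. Of the members not printed, Id4 held 1 N-box and 1 BMP-responsive match, 3 of the 4 Nfix windows held an N-box, SOX or BMP-responsive match, and 1 of the 2 Pax6 windows held an N-box. No window of a member other than Hes5 held an RBPJ match. The Hes5 and Sox2 windows were rich in C and G (71.6% and 72%, against a median of 52.4% over all windows) and held 32 and 27 CpG dinucleotides, the Id4 window was richer still (75.6% and 35), whereas the Nfia window held 1. A match is a string of letters and no evidence of binding. Promoters of 7 of the 10 members were in the table. Sox9, Nfib and Hes1 are named only.

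Id4 and Id3, inhibitors of basic helix-loop-helix factors, also parted. Id4 ranged from 431 to 760 CPM (median 520) in ACSA2-positive libraries and from 188 to 325 CPM (median 254) in CaMKII positive libraries, with no overlap. It ranged from 2.54 to 15.1 CPM (median 8.62) in double-positive libraries and from 0 to 3.24 CPM (median 0.86) in CD11b-positive libraries. Id3 ranged from 110 to 209 CPM (median 144) in CaMKII positive libraries and from 68.5 to 168 CPM (median 103) in ACSA2-positive libraries, and the ranges overlapped. In double-positive libraries Id3 lay between 0.841 and 22.8 CPM (median 3.13), and in CD11b-positive libraries between 0.507 and 7 CPM (median 1.4).

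Of the NFI factors, which bind DNA as dimers at a palindromic site and drive gliogenesis, only Nfib separated the glial populations by more than 10-fold. Nfib ranged from 357 to 453 CPM (median 392) in ACSA2-positive libraries and from 329 to 462 CPM (median 406) in CaMKII positive libraries, overlapping almost fully, but from 3.32 to 46.6 CPM (median 8.83) in double-positive and from 0.627 to 9.98 CPM (median 2.89) in CD11b-positive libraries. Nfia held 380 to 514 CPM (median 449) in ACSA2-positive, 297 to 393 CPM (median 339) in CaMKII positive, 111 to 147 CPM (median 134) in double-positive and 113 to 165 CPM (median 138) in CD11b-positive libraries. Nfix held 297 to 411 CPM (median 346), 222 to 383 CPM (median 264), 74.4 to 123 CPM (median 101) and 93.5 to 118 CPM (median 108) in the same order. Every one of the 15 CD11b-positive libraries thus held over 90 CPM of Nfia and of Nfix and less than 10 CPM of Nfib, and for Nfia and Nfix the double-positive and CD11b-positive ranges overlapped. Pax6, the paired-box factor of radial glia, had medians of 89.8 CPM in ACSA2-positive, 37.1 CPM in CaMKII positive, 1.69 CPM in double-positive and 0.0545 CPM in CD11b-positive libraries. It had no count in 5 of the 15 CD11b-positive libraries. At the depth of those 5 libraries a count of 0 allows a level of up to 3 counts, or 0.0632 to 0.181 CPM per library by counting error alone. Counts of Nfia, Nfix, Hes1, Nfib and Id3 were present in all 15 microglial libraries, the first 3 at over 10 CPM in each and Nfib and Id3 at under 10 CPM. The medians of Nfib, Id3 and Hes1 were no lower in CaMKII positive libraries than in ACSA2-positive astrocytes.

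**Figure D1:**
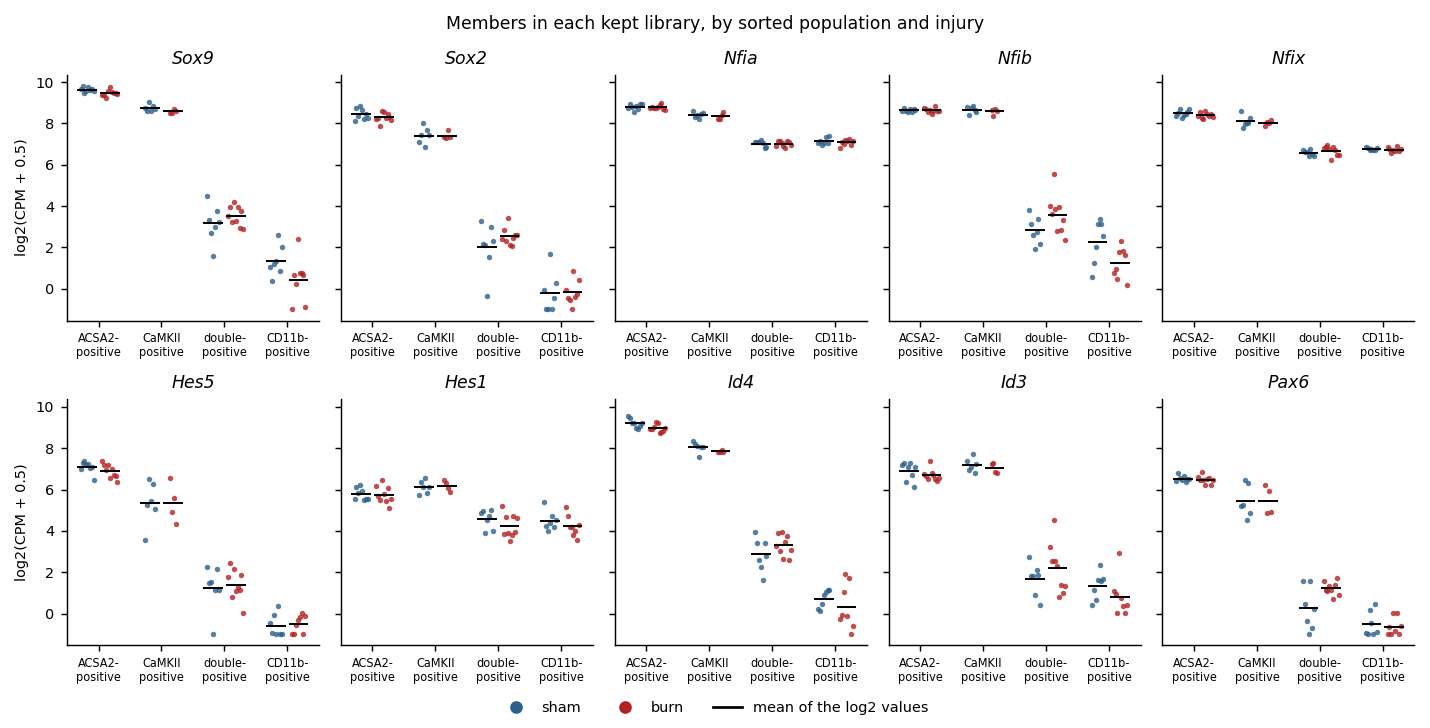
Each panel shows 1 gene, with log2(CPM + 0.5) on the vertical axis and the 4 sorted populations on the horizontal axis. Points are the 58 kept libraries, blue for sham and red for burn, bars are means of the log2 values, and a point at −1 is a library with no count. Sox9, Sox2, Hes5, Id4 and Pax6 step down from ACSA2-positive to CD11b-positive libraries, Nfib and Id3 lie level in the first pair, and Nfia and Nfix stay near 7 in the CD11b-positive libraries.

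To put the members in order within a population, levels were divided by kilobases of exon, using exon lengths from GENCODE M21. On that scale Sox9 (182 ± 20.2 CPM per kb), Sox2 (164 ± 28.6) and Id4 (143 ± 24) headed the order in ACSA2-positive libraries, with neighbours closer than their SDs, and Pax6 (7.75 ± 0.895) came last. In CD11b-positive libraries the order was headed by Nfix (14.6 ± 0.903 CPM per kb), Nfia (12.7 ± 1.31) and Hes1 (10.4 ± 3.97), and the next gene, Id3, was at 1.11 ± 0.981 CPM per kb. The double-positive libraries had the same leading genes, Nfix at 13.6 ± 1.84, Nfia at 12 ± 1.04 and Hes1 at 10.7 ± 3.87 CPM per kb.

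ACSA2-positive astrocytes were compared with CD11b-positive microglia to ask how far the members separate the glial classes. All 10 members were higher in ACSA2-positive astrocytes (p.adj ≤ 0.05 and absolute log2FC ≥ 1, edgeR's quasi-likelihood test), where 54.2% of the 30983 genes tested were called, 32.4% higher and 21.8% lower. The log2FC was 9.51 ± 0.34 (SE) for Hes5, 9.48 ± 0.37 for Sox2, 9.14 ± 0.34 for Pax6, 9.03 ± 0.34 for Id4 and 8.98 ± 0.37 for Sox9. It was 7.14 ± 0.28 for Nfib and 5.95 ± 0.29 for Id3. The smallest differences were 1.76 ± 0.06 for Nfia, 1.76 ± 0.07 for Nfix and 1.47 ± 0.14 for Hes1, and the adjusted p of Hes1 was 2.39e-11. Members had a median log2FC of 8.06 beside 0.28 over all genes tested. In each of the 15 mice with both libraries, every member had more CPM in ACSA2-positive astrocytes.

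CaMKII positive libraries held less of 5 members than ACSA2-positive libraries. Hes5 (log2FC −1.51 ± 0.24, p.adj = 1.00e-05), Id4 (−1.26 ± 0.09), Sox2 (−1.11 ± 0.11), Sox9 (−1.05 ± 0.08) and Pax6 (−1.04 ± 0.18, p.adj = 3.73e-05) passed both thresholds, where 16.2% of 30729 genes were called, 3.5% lower and 12.7% higher. Nfia (−0.58 ± 0.07, p.adj = 2.64e-07) and Nfix (−0.52 ± 0.09, p.adj = 1.66e-05) had small adjusted p-values at less than a 2-fold difference and were not called. Nfib (−0.17 ± 0.07, p.adj = 0.0728), Hes1 (0.31 ± 0.13, p.adj = 0.0696) and Id3 (0.21 ± 0.13, p.adj = 0.261) did not pass. Hes1 was higher in the CaMKII positive library of 9 of 10 mice and Id3 of 8 of 10, whereas Sox9, Sox2, Hes5, Id4, Nfia and Pax6 were lower in 10 of 10. The call of Pax6 also ended without mouse 8, 10, 17, 19, 20 or 24 (log2FC −1 to −0.98). The calls of Sox9 and Pax6 sat on the fold threshold and ended with DESeq2 (log2FC −0.98 and −1) and with RLE size factors (−0.98 and −1), and with library size alone only Hes5 and Id4 stayed past it, the median over all genes then moving from 0 to 0.16. A fit with the mouse as a block kept only the 20 of 27 libraries whose mouse had both populations, and called 3302 genes and the same 5 members, against 4978 genes in all 27 libraries and 4320 in the same 20 libraries without the block.

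Double-positive libraries held more of 6 members than CD11b-positive libraries. Hes5 (log2FC 3.42 ± 0.65), Sox2 (3.18 ± 0.54), Pax6 (2.92 ± 0.75), Id4 (2.79 ± 0.38), Sox9 (2.6 ± 0.42) and Nfib (1.62 ± 0.43, p.adj = 0.00721) were called, where 7.58% of 28752 genes were called, 5.6% higher and 1.98% lower. Nfia (−0.15 ± 0.05, p.adj = 0.0393), Nfix (−0.16 ± 0.05, p.adj = 0.0299), Hes1 (0.07 ± 0.14, p.adj = 0.786) and Id3 (0.87 ± 0.43, p.adj = 0.167) were not. The summed astrocyte markers moved with these members, from 43.4 to 154 CPM in CD11b-positive to 291 to 1168 CPM in double-positive libraries. Of the markers of other cells 3 of 6 for oligodendrocyte precursors, 3 of 7 mural, 2 of 7 oligodendrocyte, 2 of 6 ependymal or choroid plexus, 1 of 6 excitatory neuron, 1 of 8 inhibitory neuron and 2 of 6 general neuron markers were called higher, and 6 of 6 border macrophage or monocyte markers were called lower (median log2FC −1.62). The part of any of these in the result was not tested. Within batch 3 alone Nfib (log2FC 0.63, p.adj = 0.234) and Pax6 (1.9, p.adj = 0.138) were no longer called. With the mouse as a block, in the 28 of 31 libraries whose mouse had both populations, 1092 genes and the same 6 members were called, against 2179 genes in all 31 libraries and 1627 in the same 28 without the block. Id3 passed both thresholds without mouse 20 (log2FC 1.22, p.adj = 0.036).

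The CaMKII positive and double-positive libraries differed in all 10 members, each higher in the former, where 45.8% of 30693 genes were called, 26.4% higher and 19.4% lower. The log2FC ran from 1.12 ± 0.07 for Nfia, 1.21 ± 0.08 for Nfix and 1.49 ± 0.19 for Hes1 to 5.22 ± 0.22 for Sox9 and 5.28 ± 0.28 for Nfib. Of the markers, 9 of 9 astrocyte, 8 of 8 endothelial, 7 of 7 mural, 6 of 6 oligodendrocyte precursor and 6 of 7 oligodendrocyte markers were called higher. So were 4 of 6 ependymal or choroid plexus, 4 of 6 excitatory, 5 of 8 inhibitory and 4 of 6 general neuron markers. Microglia markers were lower in 9 of 9, and border macrophage or monocyte markers lower in 4 and higher in 1 of 6. Their part was not tested. The population comparisons share libraries and are not independent of one another.

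**Figure D2:**
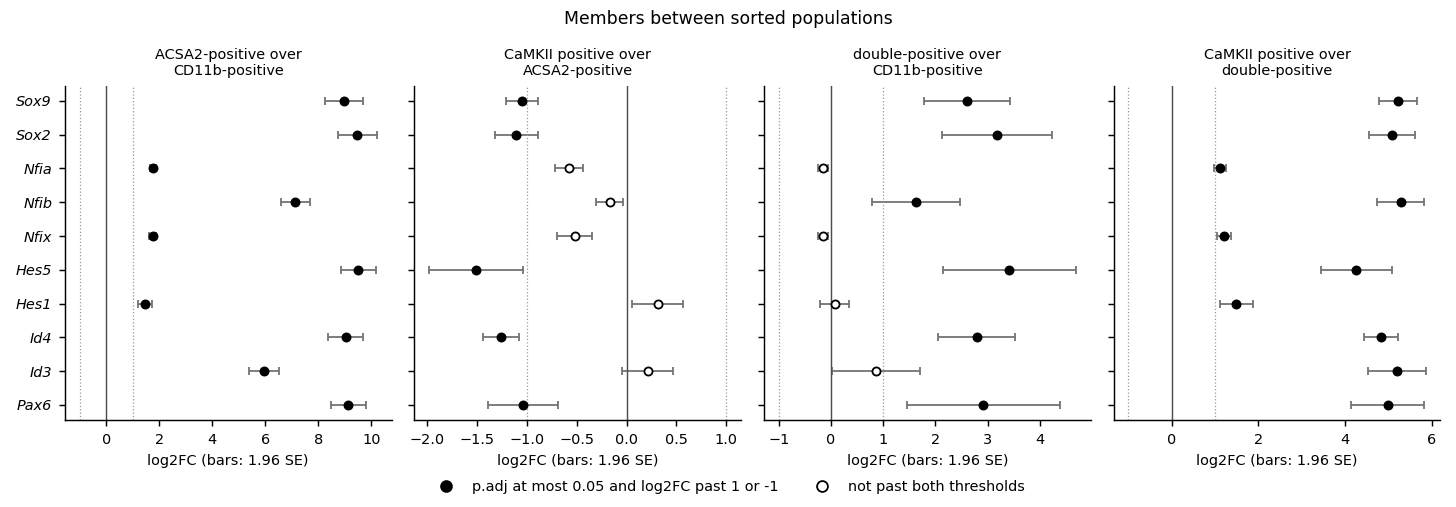
Each panel gives the log2FC of the 10 members in 1 comparison of sorted populations, with bars of 1.96 SE, filled points for members past both thresholds and dotted lines at −1 and 1. Nfia, Nfix and Hes1 have the smallest differences between ACSA2-positive and CD11b-positive cells, and Nfib, Hes1 and Id3 lie nearest 0 between CaMKII positive and ACSA2-positive cells.

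To describe the members against the astrocyte RNA of a library, each was divided by the summed CPM of the 9 astrocyte markers, none of which is a member. Id4 had similar mean ratios, 13.9 ± 1.89 per 1000 marker CPM in ACSA2-positive libraries, 13.5 ± 3.17 in CaMKII positive, 12.9 ± 3.61 in double-positive and 13.4 ± 10.8 in CD11b-positive libraries. Sox9 (19.1 ± 2.55, 22.1 ± 4.77, 15.6 ± 3.92 and 18.7 ± 12.4 per 1000) and Pax6 (2.3 ± 0.389, 2.47 ± 1.07, 2.24 ± 1.61 and 2.36 ± 2.99) also had means of the same order in the 4 populations, but with a median of 0.92 for Pax6 in CD11b-positive beside 2.27 in ACSA2-positive libraries. Sox9 differed by more than either SD between CaMKII positive and double-positive libraries. The summed markers themselves spanned from 39788 to 88 CPM on average. The means of Sox2 lay between 6.67 and 9.09 per 1000 and those of Hes5 between 2.48 and 3.31, whereas their medians were 4.11 and 1.97 in CD11b-positive beside 8.15 and 3.4 in ACSA2-positive libraries. Nfia and Nfix differed far more, with median ratios of 11.3 and 8.8 per 1000 in ACSA2-positive and 1625 and 1381 in CD11b-positive libraries, and Hes1 rose from 1.3 to 206. Between CaMKII positive and ACSA2-positive libraries of the same mouse, the ratio was higher in the former in 10 of 10 mice for Id3 (median fold 2.76), Hes1 (2.3), Nfib (1.87), Nfia (1.42) and Nfix (1.42), but in 6 of 10 for Sox2 (1.07), 5 of 10 for Sox9 (1.05) and Pax6 (1.06), 4 of 10 for Id4 (0.935) and 1 of 10 for Hes5 (0.936). Between double-positive and ACSA2-positive libraries of the same mouse the ratio was higher in the former in 2 of 16 mice for Sox9 (median fold 0.849) and for Sox2 (0.825), in 6 for Pax6 (0.821), 7 for Id4 (0.938) and 8 for Hes5. It was higher in 12 for Nfib (1.23), 13 for Id3 (1.77) and all 16 for Nfia (16.0), Nfix (15.8) and Hes1 (23.0). These ratios share their denominator and are given as a description with no test. Markers of cell types differed in both comparisons. From ACSA2-positive to double-positive libraries the summed microglia markers went from a mean of 89.5 to 21827 CPM. The border macrophage or monocyte markers went from 2.62 to 132 CPM. Every other marker list had a lower mean in double-positive libraries, with astrocyte markers going from 39788 to 708 CPM and endothelial markers from 714 to 129 CPM. From ACSA2-positive to CaMKII positive libraries the summed microglia markers went from a mean of 89.5 to 1091 CPM (9 of 9 called higher), the border macrophage or monocyte markers from 2.62 to 65.6 CPM (6 of 6), the endothelial markers from 714 to 5801 CPM (8 of 8), the oligodendrocyte precursor markers from 106 to 390 CPM (5 of 6) and the oligodendrocyte markers from 280 to 1020 CPM (6 of 7). Of the other lists, 1 of 7 mural, 2 of 6 excitatory neuron, 3 of 8 inhibitory neuron and 2 of 6 general neuron markers were called higher. The astrocyte markers were called lower in 9 of 9. The part of any of these markers in the ratios was not tested.

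**Figure D3:**
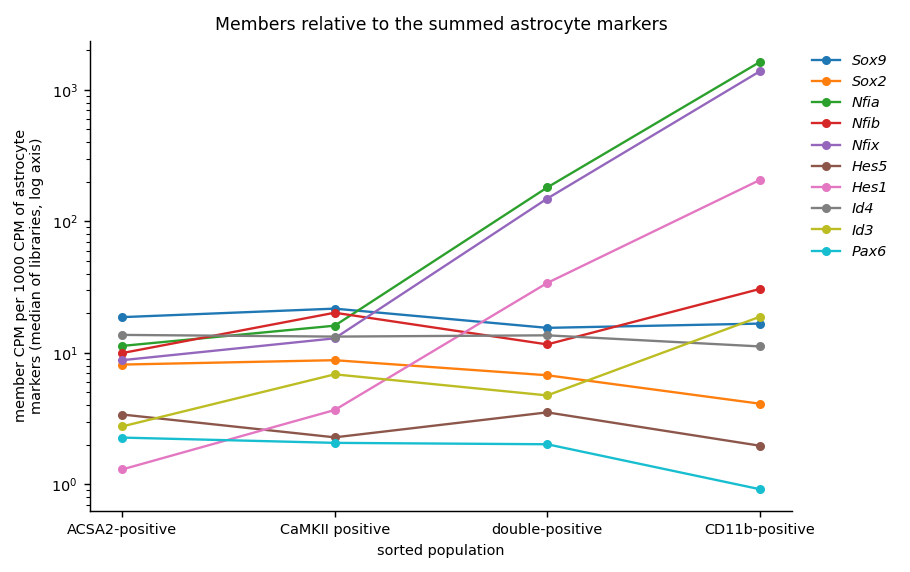
The vertical axis, on a log scale, gives each member's CPM per 1000 CPM of the summed astrocyte markers as the median over the libraries of a population, and the horizontal axis gives the 4 populations. Sox9 and Id4 run nearly level, whereas Nfia, Nfix and Hes1 rise by over 100-fold from ACSA2-positive to CD11b-positive libraries.

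The other genes of the same pathways were counted from lists. Of 14 other astrocyte-enriched transcription factors, 14 were higher in ACSA2-positive astrocytes than in CD11b-positive microglia (median log2FC 8.82), from Glis3 at 1.59 ± 0.09 to Rfx4 at 9.62 ± 0.34, and of 12 astrocyte genes downstream of the factors 11 were higher and 1, Cst3, was lower (−1.1 ± 0.11). Of 22 Notch pathway genes 9 were higher and 5 lower, with Hey2, a Notch effector, at 8.61 ± 0.51 and Maml3, a Notch coactivator, at −3.86 ± 0.12. Of 19 BMP pathway and other Id genes 11 were higher and 3 lower, from Bmp2 at −4.72 ± 0.73 to the BMP antagonist Nog at 11.04 ± 0.37. Of 13 other SOX and NFI genes 11 were higher and 1, Sox4, lower at −2.39 ± 0.09. Of 10 LIF-CNTF and STAT3 pathway genes 2 were higher and 3 lower, from Socs3, a feedback inhibitor of cytokine signalling, at −4.08 ± 0.28 to the CNTF receptor subunit Cntfr at 9.57 ± 0.34. Of 13 genes in the list of proneural factors and E proteins, which also holds Olig1 and Olig2, 8 were higher and 1 was lower. They ran from Eomes at −2 ± 0.8 to Neurog1 at 9.39 ± 0.57. The median over all genes tested was 0.28, and with 32.4% of all genes called higher and 21.8% lower, the shares of the Notch list lay near the background.

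Between CaMKII positive and ACSA2-positive libraries 12.7% of all genes were called higher and 3.5% lower. Of the astrocyte-enriched transcription factors 7 of 14 were lower and none higher, with Dbx2 at −1.27 ± 0.17 and Nr2e1 at −1.01 ± 0.15, and of the downstream genes 9 of 12 were lower, with Gfap at −1.54 ± 0.3 and the neurotensin receptor Ntsr2 at −1.03 ± 0.18. Of the Notch pathway 4 of 22 were higher and none lower, the largest being the ligand Jag2 (2.74 ± 0.19) and the smallest the ligand Dll1 (1.45 ± 0.32). Of the BMP and Id list 7 of 19 were higher and 3 lower, from the receptor Bmpr1b (−1.22 ± 0.14) to the ligand Bmp4 (3.66 ± 0.74). Of the other SOX and NFI genes 3 of 13 were higher and 3 lower, from Sox1 (−1.12 ± 0.11) to Sox10, an oligodendrocyte lineage factor (4.13 ± 0.43). Of the LIF-CNTF list 2 of 10 were higher and 1, Lif, was lower (−1.19 ± 0.33), and of the proneural list none of 13 was higher and 2 were lower, among them Neurod1 (−4.1 ± 1.51). Between double-positive and CD11b-positive libraries, where 5.6% of all genes were called higher and 1.98% lower, 10 of 14 astrocyte-enriched factors, 6 of 12 downstream genes and 7 of 13 other SOX and NFI genes were higher and none lower, against 2 of 22 Notch pathway genes, 5 of 19 BMP and Id genes and 1 of 10 LIF-CNTF genes. Of 11 genes of the proneural and E protein list tested there, Olig1 was higher (2.63 ± 0.61) and Eomes lower (−4.2 ± 0.75). Between CaMKII positive and double-positive libraries 26.4% of all genes were called higher and 19.4% lower. Higher in the former were 13 of 14 astrocyte-enriched factors, 11 of 12 downstream genes and 11 of 13 other SOX and NFI genes. So were 12 of 22 Notch, 11 of 19 BMP and Id and 2 of 10 LIF-CNTF genes. Of the proneural and E protein list 6 of 13 were higher. In the same order 0, 1, 1, 3, 2, 3 and 0 were lower.

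Burn and sham-injured mice were then compared within each population. No member passed the thresholds in any of the 4 populations, by edgeR or by DESeq2, where 0% of genes were called by edgeR in each. In ACSA2-positive astrocytes 9 of 10 members lay below 0, with log2FC from −0.27 to 0.01. Their median was −0.11 beside 0.05 over all genes. The 9 astrocyte markers had a median log2FC of −0.12 there, 1 of them with an unadjusted p under 0.05, and their part was not tested. Id4 ranged from 431 to 616 CPM (median 495) in 9 burn libraries and from 490 to 760 CPM (median 595) in 8 sham libraries, and the groups overlapped. Its log2FC was −0.27 ± 0.1 (SE), with an unadjusted p of 0.00934 and an adjusted p of 0.458 by edgeR, and the adjusted p lay between 0.308 and 0.801 over the alternatives. Hes5, at a median of 123 CPM in burn and 141 CPM in sham libraries, had a log2FC of −0.25 ± 0.11 (edgeR's adjusted p = 0.458). These were 2 of 10 members with an unadjusted p under 0.05, where 10.7% of all genes had one. Sox9 had a log2FC of −0.17 ± 0.08, and 1.96 SE on either side of each estimate kept all 10 members between −0.54 and 0.29 in these astrocytes. The endothelial markers summed to 515 to 1467 CPM in burn and 153 to 847 CPM in sham libraries of this population, 7 of 8 with an unadjusted p under 0.05 and none called, and their part in the member values was not tested.

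In CaMKII positive libraries no member had an unadjusted p under 0.05, where 3.9% of genes did, and log2FC lay between −0.23 (Id4) and 0.05 (Hes1). The interval of 1.96 SE spanned −1.26 to 1.02 for Hes5, so that with 4 burn libraries it held 2-fold differences in both directions. In double-positive libraries log2FC lay between −0.45 ± 0.25 (Hes1) and 1.07 ± 0.67 (Pax6), again with no member at an unadjusted p under 0.05, where 7.01% of genes had one. Pax6 there ranged from 1.14 to 2.75 CPM in burn and from 0 to 2.5 CPM in sham libraries, and overlapped. Its log2FC ran from 0.81 without mouse 16 to 2.19 without mouse 17.

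In CD11b-positive microglia all 10 members lay below 0 (median −0.17, against 0 over all genes). The share of all genes below 0 is not given, here or for ACSA2-positive astrocytes. An unadjusted p under 0.05 was found for 2 of 10 members, where 7.81% of all genes had one. Nfib ranged from 0.627 to 4.52 CPM (median 2.03) in 8 burn libraries and from 1 to 9.98 CPM (median 5.29) in 7 sham libraries. The log2FC was −1.06 ± 0.39, with an unadjusted p of 0.0123 and an adjusted p of 0.639 by edgeR, and over the alternatives the adjusted p lay between 0.471 and 1. Within batch 3, the 5 sham libraries held 3.55 to 9.98 CPM and the 5 burn libraries 0.627 to 4.52 CPM, and the fit to that batch alone gave a log2FC of −1.35 (p.adj = 0.607). The summed astrocyte markers had a median of 125 CPM (76.6 to 150) in the sham and 70.8 CPM (54.6 to 154) in the burn libraries of that batch, and the ranges overlapped. Over all batches the astrocyte markers had a median log2FC of −0.38 (2 of 9 with an unadjusted p under 0.05). They summed to a mean of 71.1 CPM in burn and 107 CPM in sham libraries. Endothelial markers had a median log2FC of −0.86 (1 of 8) and border macrophage or monocyte markers one of 0.38 (2 of 6). The latter summed to a mean of 396 CPM in burn and 283 CPM in sham libraries. None was called, and the part of any of these in the difference was not tested. Hes1 ranged from 11.4 to 35.6 CPM (median 17.8) in burn and from 15.7 to 41 CPM (median 20.2) in sham libraries, with a log2FC of −0.44 ± 0.16 (edgeR's adjusted p = 0.639). Nfia and Nfix, the best-measured members in microglia, had log2FC of −0.02 ± 0.09 and −0.02 ± 0.08. No member passed a test of the difference in burn effect between CD11b-positive and ACSA2-positive cells, or between CaMKII positive and double-positive cells, with edgeR or with DESeq2 (0.00323% and 0.00977% of genes called by edgeR). Nfib differed most by p between microglia and astrocytes (log2FC −1.02 ± 0.32, adjusted p = 0.293), the 1 member of the first test with an unadjusted p under 0.05, where 8.67% of genes had one, and the second test had none, where 6.01% did.

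**Figure D4:**
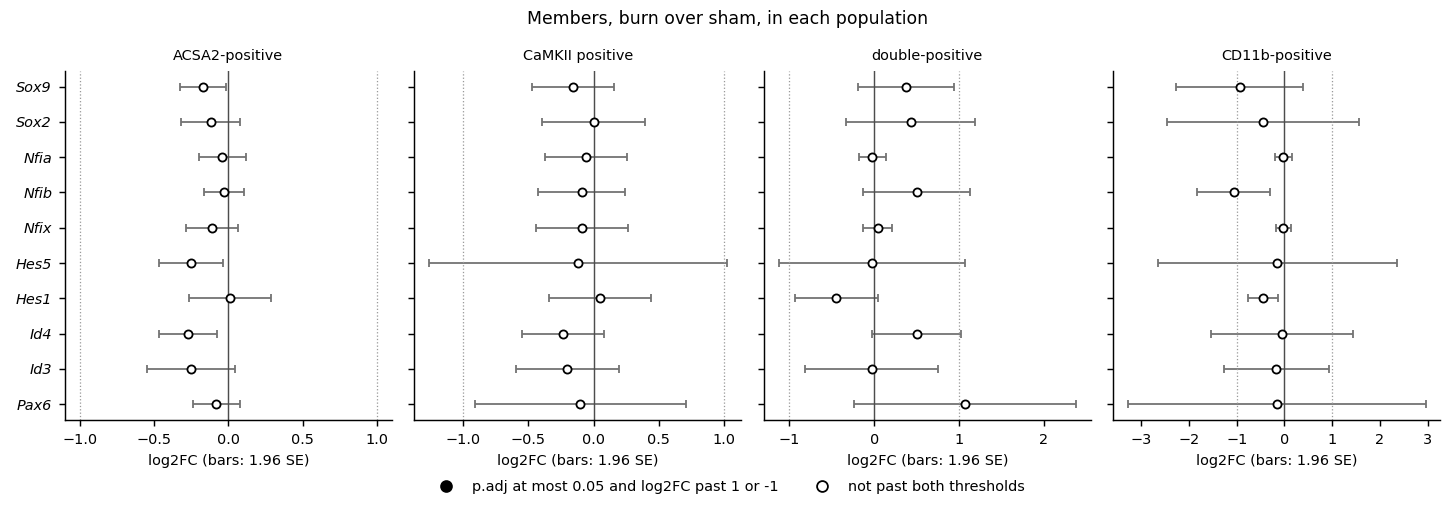
Each panel gives the log2FC of the 10 members, burn over sham, in 1 population, with bars of 1.96 SE and dotted lines at −1 and 1; the horizontal scale differs between panels. All points are open, since none passed both thresholds, and in CD11b-positive cells the bars of Nfia and Nfix are the shortest and that of Pax6 the longest.

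Among the pathway lists no gene passed the thresholds for burn against sham in any population by edgeR. The smallest unadjusted p in ACSA2-positive astrocytes was that of the Notch ligand Jag1 (p = 0.00245, p.adj = 0.458 by edgeR), in CaMKII positive libraries that of Olig1 (p = 0.0303), in double-positive libraries that of the cytokine receptor subunit Il6st (p = 0.0321) and in CD11b-positive microglia that of Emx2 (p = 0.0107, p.adj = 0.639). In ACSA2-positive astrocytes 4 of 22 Notch pathway genes had an unadjusted p under 0.05, where 10.7% of all genes had one.

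Some members also differed between sequencing batches. The kept mice 2, 7, 8 and 10 formed batch 1, mice 11 to 13 batch 2 and mice 15 to 24 batch 3. Batch was a term in each burn fit. In double-positive cells batch 1 held 3 burn and 0 sham libraries, and in CD11b-positive cells batch 2 held 0 burn and 1 sham. Within such a batch burn and sham cannot be compared. In a contrast of batch 3 with the earlier batches, chosen after the data were seen, Nfib was higher in batch 3 in CD11b-positive libraries (log2FC 1.59 ± 0.4, p.adj = 0.0235), where 0.483% of genes were called. The 5 earlier libraries held 0.91 to 1.85 CPM and the 10 of batch 3 held 0.627 to 9.98 CPM. In double-positive libraries Nfib (−1.19 ± 0.3, p.adj = 0.0248) and Id3 (−1.74 ± 0.41, p.adj = 0.0165) were lower in batch 3, where 1.16% of genes were called. Id3 there ranged from 3.08 to 22.8 CPM in the 6 earlier libraries and from 0.841 to 4.4 CPM in the 10 of batch 3. Without mouse 10, whose double-positive library held the most of both, the log2FC of Nfib was −0.79 (p.adj = 0.0767) and was no longer called, nor was it without mouse 12 or mouse 20, and in CD11b-positive libraries it was not called without mouse 8 (1.35, p.adj = 0.106), mouse 13 or mouse 21. Hes1 in CD11b-positive libraries (−0.72 ± 0.18, p.adj = 0.0213) and Hes5 in ACSA2-positive libraries (−0.46 ± 0.11, p.adj = 0.0274) were lower in batch 3 at less than 2-fold, where 3.7% and 2.36% of genes passed the adjusted p at any fold. The adjusted p of Hes1 rose above 0.05 without mouse 8 (log2FC −0.56, p.adj = 0.166), mouse 2 (0.0887) or mouse 7 (0.0509), and that of Hes5 without mouse 13 (log2FC −0.44, p.adj = 0.0652), mouse 12 (0.0622) or mouse 2 (0.0584). In ACSA2-positive libraries 0 members and 1.03% of genes passed both thresholds. In CaMKII positive libraries the contrast set 2 earlier libraries, 1 burn and 1 sham, against 8 of batch 3, which leaves little power. No member and 0% of genes were called there by edgeR, although 118 genes were called by DESeq2. No member had an unadjusted p under 0.05. The other background counts depended on single mice as well as on the tool. In ACSA2-positive libraries 289 genes were called, 93 without mouse 12 and 423 without mouse 22, moving by over 1.5 times without 7 of the 17 mice, and 570 by DESeq2. In double-positive libraries 310 genes were called, 116 without mouse 10 and 391 without mouse 17, moving by over 1.5 times without 8 of the 16 mice, and 162 with filterByExpr. In CD11b-positive libraries 126 genes were called, 64 without mouse 8 and 191 without mouse 19, and 290 by DESeq2. Markers of other cells moved with batch as well. In ACSA2-positive libraries 2 of 6 ependymal or choroid plexus markers (median log2FC 2.95), 1 of 9 microglia markers (1.87) and 2 of 7 mural markers (0.23) were called higher in batch 3, and 2 of 6 excitatory neuron (−1.53) and 1 of 7 oligodendrocyte markers (−1.55) lower. In double-positive libraries 6 of 8 endothelial (median log2FC −2.11) and 1 of 7 mural markers (−1.33) were called lower in batch 3. There 1 of 6 general neuron markers (0.48) was called higher. In CD11b-positive libraries 3 of 9 astrocyte (median 1.2), 1 of 8 endothelial (1.34) and 1 of 4 tested ependymal or choroid plexus markers (2.01) were called higher. Of the general neuron markers 1 of 6 (−0.25) was called lower. The part of any of these markers in the batch values was not tested.

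**Figure D5:**
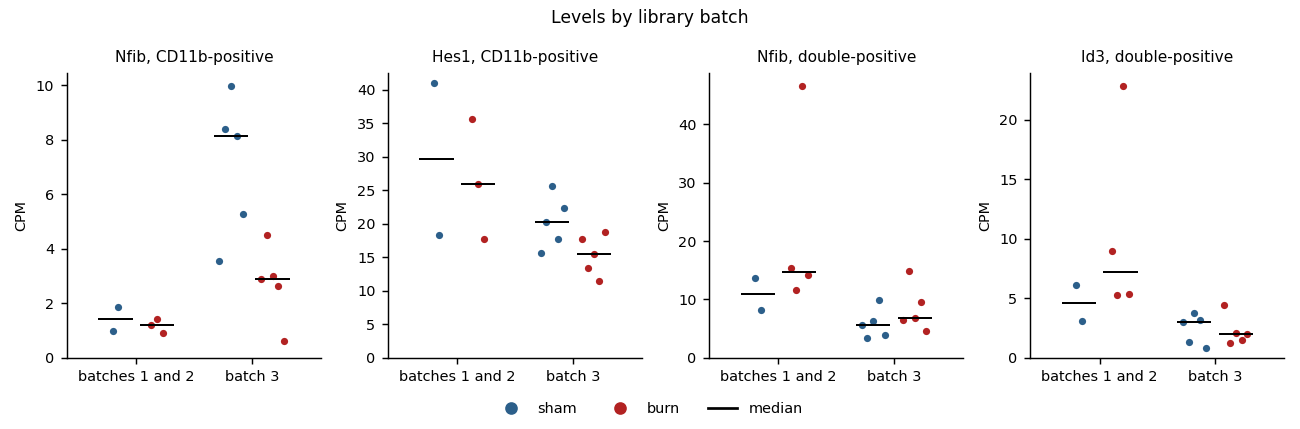
CPM of Nfib and Hes1 in CD11b-positive libraries and of Nfib and Id3 in double-positive libraries is plotted against sequencing batch, with 1 point a library, blue for sham and red for burn, and bars at the medians. In CD11b-positive libraries Nfib is at or under 1.85 CPM in the earlier batches and reaches 9.98 CPM in batch 3, and the double-positive library of mouse 10 is the top point in both right-hand panels.

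The genes whose profiles were most like those of the members over the 58 libraries were listed by the root mean square difference of centred log2(CPM + 0.5) values among 19380 other genes. Those nearest to Sox9 were Acsbg1 (0.47), the glutamate transporter gene Slc1a2 (0.47) and Plpp3 (0.49), and those nearest to Id4 were Gpm6a (0.45), Pou3f3 (0.46) and Rorb (0.46). Nfix was the nearest gene to Nfia (0.16), followed by Ckap5 (0.18), and Ckap5 (0.16) was the nearest to Nfix, followed by Nfia (0.16). For Nfib the nearest was Nebl (0.33), for Hes5 they were Sox21 (0.53) and Mfge8 (0.53), and for Hes1 they were Tshz1 (0.4), Klhl5 (0.41) and the receptor gene Notch1 (0.41). No member lay among the 3 nearest of Hes5, Hes1, Id4, Id3, Nfib, Pax6, Sox2 or Sox9.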

How the data were processed

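RNA from 4 sorted populations was sequenced in 63 libraries from 18 mice after ribosomal depletion. Per the labels and the study's methods, the authors trimmed reads with fastp, aligned them with STAR to GRCm39 (mm10 is also named) and deposited raw counts per Ensembl gene, the unit used here. Deposited variance-stabilised values were not used. Following the study, mouse 3 (4 libraries, skin ulceration) and double-positive mouse 8, with 331215 counts, were left out, and 58 libraries with 13346143 to 134703744 counts remained. CPM (counts scaled to 1000000 per library) used the library total. Differences were tested with edgeR 4.0.16 (R 4.3.3; TMM, quasi-likelihood test, genes with at least 10 counts in total) and Benjamini-Hochberg adjustment over all genes tested. Burn fits had batch, taken from the study's animal list, as a term, and population fits had batch and treatment. A gene was called at p.adj ≤ 0.05 with |log2FC| ≥ 1. Alternatives were DESeq2 1.42.0, other scalings, filters and sample sets, and a mouse block. The SE of an edgeR estimate was derived from its log2FC and the F statistic of the test. Intervals of 1.96 SE include the spread between libraries. They take no account of the small number of libraries and are somewhat narrower than the test implies. The limit that a count of 0 allows covers counting error only. Scripts were tested on simulated data.

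Replicate numbers are mouse numbers, so populations are paired by animal. Same-mouse libraries deviated together little (median r = 0.031 for ACSA2-positive and CD11b-positive, 0.0694 for CaMKII positive and ACSA2-positive, 0.024 for double-positive and CD11b-positive and 0.0561 for CaMKII positive and double-positive libraries).

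The members and the pathway and marker lists were chosen with earlier results of these data known. All members were named. Of a list, the called genes with the largest or smallest log2FC were named, or, with none called, the gene with the smallest p in a population. Some list genes that this rule would name are not reported here. Promoter windows came from RefSeq GRCm38.p6 and exon lengths from GENCODE M21.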

Additional observations from a re-analysis of the deposited data

Results flagged for a closer look

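In 9 of 80 groups of 1 gene, 1 population and 1 treatment, the highest library stood apart from the others by Dixon's criterion, where chance gives about 4. In the double-positive burn group, mouse 10 held 46.6 CPM of Nfib (next 15.4) and 22.8 CPM of Id3 (next 8.97). That library also had the highest summed endothelial (649 CPM), oligodendrocyte (444 CPM), border macrophage or monocyte (337 CPM), oligodendrocyte precursor (150 CPM), excitatory neuron (91.1 CPM) and mural (60.5 CPM) markers of the population, whose part was not tested. In the CD11b-positive burn group, mouse 20 held 4.75 CPM of Sox9 (next 1.2) and 7 CPM of Id3 (next 1.64), together with the highest summed astrocyte markers of the population (154 CPM), whose part was not tested. Sox2 stood apart at 206 CPM in CaMKII positive burn mouse 22 (next 161), at 10.1 CPM in double-positive burn mouse 11 (next 6.73) and at 2.68 CPM in CD11b-positive sham mouse 16 (next 0.715). Hes1 reached 41 CPM in CD11b-positive sham mouse 8 (next 25.7), and Id3 reached 168 CPM in ACSA2-positive burn mouse 11 (next 111).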

How the results depend on the processing

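For burn against sham no gene was called by edgeR. DESeq2 called 27 genes in ACSA2-positive, 3 in CaMKII positive, 2 in double-positive and 80 in CD11b-positive libraries, counting genes with any count gave 4 in ACSA2-positive and 14 in double-positive libraries, and all deposited libraries gave 136 in double-positive libraries, with no member among them. The fit with the mouse as replicate block also left out the libraries of mice with 1 of the 2 populations. It called 3302 genes for CaMKII positive against ACSA2-positive (4978 in all libraries, 4320 in the paired libraries without the block), 1092 for double-positive against CD11b-positive (2179 and 1627), and 0 and 0 for the interactions (1 and 3 in all libraries, 0 and 1 in the paired ones), with no member's call changed. The unblocked fit to paired libraries was chosen after seeing the data. With filterByExpr the counts were 10704 (ACSA2-positive against CD11b-positive), 2998, 953, 9105 (CaMKII positive against double-positive), and 0 and 6 for the interactions, for which DESeq2 gave 329 and 91. Without a minimum fold, 9181 and 5073 genes were called for CaMKII positive against ACSA2-positive and double-positive against CD11b-positive libraries, and batch 3 alone gave 1008 for the latter. Members called between CaMKII positive and ACSA2-positive libraries numbered 3 with DESeq2, with RLE and with any count, and 2 with library size alone.

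Changes of sign were confined to estimates that were not called. In batch 3 alone the burn log2FC was 0.02 for Nfia and −0.14 for Hes1 (ACSA2-positive), 0.04 for Nfia, 0.07 for Nfix and −0.12 for Hes1 (CaMKII positive) and 0.03 for Nfix and 0.47 for Hes5 (CD11b-positive), and Id3 was at −0.04 between double-positive and CD11b-positive libraries. Without a batch term it was −0.02 for Hes1 (ACSA2-positive), 0.07 for Hes5 and 0.94 for Id3 (double-positive) and 0.16 for Hes5 (CD11b-positive). All deposited libraries gave 0.06 for Sox2 (CaMKII positive) and 0.41, 0.11 and 0.2 for Nfia, Hes5 and Id3 (double-positive), and Nfib with library size alone (ACSA2-positive) and Sox2 with filterByExpr (CaMKII positive) were at 0. The cause was not tested.

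Leaving out 1 mouse at a time, the burn log2FC ran from −0.08 to 0 for Nfia and −0.07 to 0.11 for Hes1 in ACSA2-positive libraries. In CaMKII positive libraries it ran from −0.08 to 0.12 for Sox2, −0.13 to 0.03 for Nfia, −0.16 to 0.07 for Nfix, −0.79 to 0.34 for Hes5, −0.13 to 0.19 for Hes1 and −0.39 to 0.14 for Pax6. In double-positive libraries it ran from −0.06 to 0.02 for Nfia, −0.02 to 0.1 for Nfix, −0.26 to 0.29 for Hes5 and −0.32 to 0.16 for Id3. In CD11b-positive libraries it ran from −0.87 to 0.6 for Sox2, −0.06 to 0.03 for Nfia, −0.05 to 0.02 for Nfix, −0.57 to 0.48 for Hes5, −0.55 to 0.2 for Id4, −1.21 to 0.05 for Id3 and −0.76 to 0.43 for Pax6. Hes1 between double-positive and CD11b-positive libraries ran from 0 to 0.13. Levels moved by less than 1 SD with TMM scaling in all 40 combinations of member and population. The CD11b-positive intervals of Sox2, Hes5 and Pax6 rest on libraries with 0 to 59 counts.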

Other observations

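Mouse 3, left out of every comparison, held 594 CPM of Sox9, 258 CPM of Sox2 and 65.4 CPM of Pax6 in its ACSA2-positive library, the Sox9 and Pax6 values lying below all kept libraries of that population. Its CaMKII positive library held 191 CPM of Id3, its double-positive library 9.8 CPM of Nfib, and its CD11b-positive library 110 CPM of Nfia but 0.0782 CPM of Sox9. The double-positive library of mouse 8 held no count of any of the 10 members. At its total of 331215 counts a count of 0 allows up to 9.06 CPM, so absence is not shown for any member whose kept libraries lie under that level.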
